A study of Rattus norvegicus with 4 samples.

Results

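The 10 genes described here encode the adaptors and kinases that stand directly downstream of Toll-like receptors, together with the co-receptor Cd14. They are Cd14, the adaptors Myd88, Tirap, Ticam1 and Ticam2, the kinases Irak4, Irak1 and Irak3, the ubiquitin ligase Traf6 and the kinase Map3k7. The members were fixed as a list of gene names, chosen with earlier results of these data known. Every non-control probe whose array gene name was on that list was taken. This gave 13 probes for 10 of the 18831 genes with a symbol on the array. Ticam1, Irak1 and Map3k7 have 2 probes each and the other 7 genes 1 each. Each member probe was printed on 1 spot.

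RNA came from NR8383, an established macrophage line derived from the lung lavage of a normal rat, after 20 passages. The 4 replicate cultures, called biological replicates in the design text, form the only group, the submerged control, and were grown in DMEM supplemented with 15% serum plus 2 mM glutamine. The time under medium is 4 h by the design text and 48 h from seeding by the treatment protocol, and no second condition was analysed here. The data therefore answer which of these genes gave a signal above background and how far 4 replicates of 1 continuous line, each on 1 one-colour array, differed.

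Toll-like receptors carry a cytoplasmic TIR domain and signal by recruiting adaptor proteins with a matching domain. Myd88, brought to the membrane by Tirap, assembles the kinases Irak4 and Irak1, and these engage Traf6, whose ubiquitin chains activate Map3k7 (TAK1) and through it NF-kB and the MAP kinases. Ticam1 (TRIF), linked to Tlr4 by Ticam2 (TRAM), forms a separate branch from Tlr3 and endosomal Tlr4 towards interferon regulatory factors. Cd14 hands lipopolysaccharide to Tlr4 and its partner Ly96. Irak3 (IRAK-M), which lacks normal kinase activity, restrains the pathway in macrophages.

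What the array measured is the RNA that binds a 60-base oligonucleotide. Of the 13 probes, 5 are printed 5′ to 3′ in lower case with their rn4 positions. The Cd14 probe was chosen because its level spread most, and the first Ticam1 probe because it disagreed with the second. The Irak4 probe was chosen because it was close to background. The first Irak1 probe lay on the same side of its mean as the second on 4 of 4 arrays. The Traf6 probe is that of the ligase where the kinases converge.
Cd14, chr18:29374990-29375049, minus strand: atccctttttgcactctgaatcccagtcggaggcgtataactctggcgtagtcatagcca
Ticam1 first probe, chrUn:25503085-25503144, plus strand: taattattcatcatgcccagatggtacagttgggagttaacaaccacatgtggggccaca
Irak4, chr7:133077639-133080589, plus strand: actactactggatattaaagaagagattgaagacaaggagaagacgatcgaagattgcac
Irak1 first probe, chrX:159961767-159961826, minus strand: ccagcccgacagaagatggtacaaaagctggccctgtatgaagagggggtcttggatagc
Traf6, chr3:86846359-86846418, plus strand: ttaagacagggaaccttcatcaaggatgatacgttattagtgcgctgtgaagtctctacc

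The Irak4 oligonucleotide covers 2951 bases of rn4, so its 60 bases lie on both sides of a gap in the genomic alignment. The other 12 each lie in 1 unbroken stretch of 60 bases. G and C made up 50.0% of the Cd14 probe, 45.0% of the first Ticam1 probe, 38.3% of the Irak4 probe, 55.0% of the first Irak1 probe and 43.3% of the Traf6 probe, and 35.0% to 55.0% over all 13. The polyadenylation signal AATAAA was present in 2 of the 13, the Ticam2 probe and the second Irak1 probe. No exon, coding or UTR annotation was used.

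All 13 probes were well above background on all 4 arrays and none of their spots was flagged as an outlier, so 10 of 10 members were detected. Over all genes with a symbol 54.9% were detected on all 4 arrays. The processed signal at the 75th percentile was 1317, 1489, 1179 and 958 fluorescence units on replicates 1 to 4. Levels are given as log2 of the signal relative to that percentile, as mean ± SD over 4 replicates, so that 0 is the 75th percentile of the array. Probes bind with different efficiency, so levels of different genes are not ranked.

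Cd14, a membrane-anchored or secreted protein that binds lipopolysaccharide, gave 152.8, 203.3, 133.2 and 166.6 fluorescence units on replicates 1 to 4. Relative to the array, its level was -3.11, -2.87, -3.15 and -2.52, with a mean of -2.91 ± 0.29 (SD, n = 4) and a 1.54-fold range. Replicate 4 was highest and replicates 1 and 3 lay together at the low end. Its spot was 4.62 to 6.92 times as bright as the local background. Among the 13 probes Cd14 had the largest SD, at 1.76 times the SD that limma's fitted trend gives for a probe of its level. It did not pass the variance test (unadjusted p = 0.106, adjusted p = 0.941, limma). With the spike-in controls as scale replicate 2 was highest instead, with deviations from the Cd14 mean of 0.20, 0.43, -0.43 and -0.20, and the SD of Cd14, 0.39, was below the 0.542 that was then the median of the member probes.

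Myd88, the adaptor shared by nearly all Toll-like receptors and by interleukin 1 receptors, gave a bright signal. Its probe, at chr8:124299763-124299822 on the minus strand of rn4, read 7445.0, 8453.7, 6396.7 and 4987.3 fluorescence units. The Myd88 spot was 220 to 287 times as bright as the local background. Its levels were 2.50, 2.50, 2.44 and 2.38, or 2.46 ± 0.06 (SD, n = 4) with a 1.09-fold range. No replicate stood apart on this scale, and the SD was 0.621 of the fitted trend. With the spike-in controls as scale the deviations from the Myd88 mean were 0.44, 0.44, -0.21 and -0.67.

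Tirap, the sorting adaptor that places Myd88 at the plasma membrane, lay at -3.58, -3.82, -3.46 and -3.82 on its probe at chr8:34965410-34965469. The mean was -3.67 ± 0.18 (SD, n = 4), and the signal was 67.8 to 110.4 fluorescence units. The spot was 3.72 to 4.11 times as bright as the local background. Replicates 2 and 4 were low and nearly equal, and replicate 3 was highest. With normexp the deviations from the Tirap mean were 0.02, -0.18, 0.08 and 0.08, and with the spike-in controls as scale 0.49, 0.24, 0.01 and -0.74, so no order of the replicates is given for Tirap. One further probe, which the array describes as similar to Tirap but names by a transcript identifier, fell outside the rule and was above background on 1 of 4 arrays.

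Ticam1, the TRIF adaptor of Tlr3 and of endosomal Tlr4, was read by 2 neighbouring probes on unplaced sequence of rn4. The first gave -3.48, -3.77, -3.47 and -3.42 (mean -3.53 ± 0.16, SD, n = 4) and the second, at chrUn:25503276-25503335, gave -3.50, -3.38, -3.51 and -3.45 (-3.46 ± 0.06, SD, n = 4). On replicate 2 the first probe was at its lowest and the second at its highest. The 2 probes lay on the same side of their own means on 1 of 4 arrays. Expressed as deviations from each probe's own mean, replicate 2 was at -0.23 on the first probe and 0.08 on the second, a disagreement of 0.31 log2 units. On the first probe the gap below the other 3 replicates was 0.841 of the range, and 5.3% of all detected probes had 1 replicate whose gap passed Dixon's critical value for 4 samples. The trend fitted by limma gives an SD of 0.188 at the level of the first probe and 0.185 at that of the second, and neither passed the variance test (adjusted p = 0.996 and 0.998, limma). With normexp both probes lay below their means on replicate 2, at -0.22 and -0.04, and both were highest on replicate 4. With the spike-in controls as scale both lay above their means on replicate 2, at 0.16 and 0.47.

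Ticam2, the TRAM adaptor that links Tlr4 to Ticam1, lay at -0.44, -0.30, -0.44 and -0.49 on its probe at chr18:40776934-40776993. Its mean was -0.42 ± 0.08 (SD, n = 4), from signals of 681.1 to 1209.7 fluorescence units. Replicate 2 was highest and the others lay close together, and the probe was 26.2 to 34.9 times as bright as its local background. All 4 adaptors thus gave signal in all 4 cultures.

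**Figure D1:**
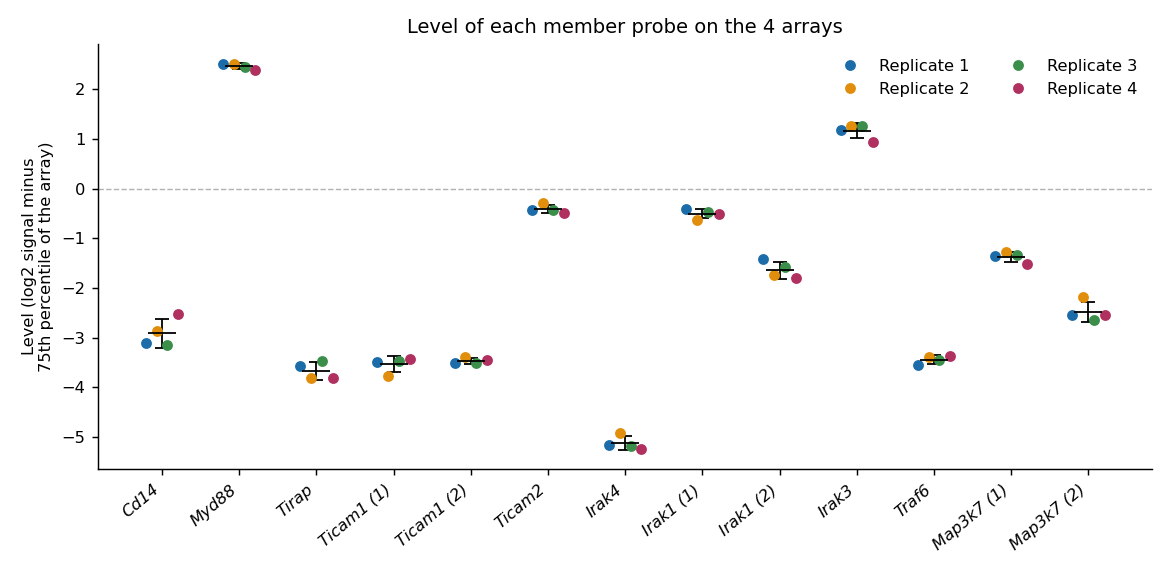
Level of each of the 13 member probes (y axis, log2 signal relative to the 75th percentile of its array) by probe (x axis, in pathway order). Coloured points are replicates 1 to 4, and the black bar with whiskers is the mean ± SD over 4 replicates. Myd88 and Irak3 lie above the dashed line at the 75th percentile and all others below it, and Cd14 shows the widest spread; levels of different probes are not comparable.

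Irak4, the kinase that starts the phosphorylation relay of the myddosome, was close to the limit of its probe. It gave 37.1, 49.6, 32.4 and 25.5 fluorescence units, and the spot was only 2.00 to 2.34 times as bright as the local background. Its levels of -5.15, -4.91, -5.18 and -5.23 average -5.12 ± 0.14 (SD, n = 4). Replicate 2 was highest with the 75th percentile as scale. With normexp background correction the mean was -3.69 and replicate 4 was highest, so no order of the replicates is given for Irak4.

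Irak1, the kinase that Irak4 phosphorylates and that carries the signal to Traf6, was read by 2 probes on chromosome X. The first gave -0.41, -0.63, -0.48 and -0.52 (-0.51 ± 0.09, SD, n = 4), and the second, at chrX:159959301-159959360, gave -1.42, -1.74, -1.58 and -1.80 (-1.64 ± 0.17, SD, n = 4). Both were highest on replicate 1 and lay on the same side of their own mean on all 4 arrays. The first was lowest on replicate 2, at a deviation of -0.12. The second was lowest on replicate 4, at -0.17, where the first lay at -0.01. The largest disagreement was 0.15 log2 units, on replicate 4. Their spots were 22.0 to 28.4 and 11.4 to 14.7 times as bright as the local background.

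Irak3, the inhibitory family member, gave 2973.1, 3534.6, 2830.8 and 1834.9 fluorescence units. The Irak3 spot was 54.9 to 95.5 times as bright as the local background. Levels on its probe at chr7:59408261-59408320 were 1.17, 1.25, 1.26 and 0.94, with a mean of 1.16 ± 0.15 (SD, n = 4) and a 1.25-fold range. Replicate 4 was lowest, under every scaling and background correction tried. Replicates 1 to 3 lay close together, except with the spike-in controls as scale, where the 4 deviations were 0.42, 0.48, -0.09 and -0.81. The SD was 1.56 times the fitted trend, and the variance test was not passed (unadjusted p = 0.159, adjusted p = 0.996, limma).

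Traf6, the ligase that builds the ubiquitin chains read by the Map3k7 complex, lay at -3.55, -3.39, -3.45 and -3.36. Its mean was -3.44 ± 0.09 (SD, n = 4), from a signal of 93.6 to 142.1 fluorescence units. The spot was 3.63 to 4.11 times as bright as the local background. The 4 replicates spanned 1.15-fold, and the SD was 0.473 of the fitted trend. With the spike-in controls as scale the SD of Traf6 was 0.44, and replicate 4 was lowest.

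Map3k7, the TAK1 kinase that activates the IKK complex and MAP kinase kinases, was read by 2 probes on chromosome 5. The first, at chr5:48308756-48308815, gave -1.36, -1.28, -1.33 and -1.51 (-1.37 ± 0.10, SD, n = 4). The second, at chr5:48309434-48309493, gave -2.55, -2.18, -2.64 and -2.55 (-2.48 ± 0.20, SD, n = 4). Both were highest on replicate 2, by deviations of 0.09 and 0.30 from their own means, and they fell on the same side of those means on 2 of 4 arrays. With normexp both were again highest on replicate 2, but by only 0.06 and 0.12.

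**Figure D2:**
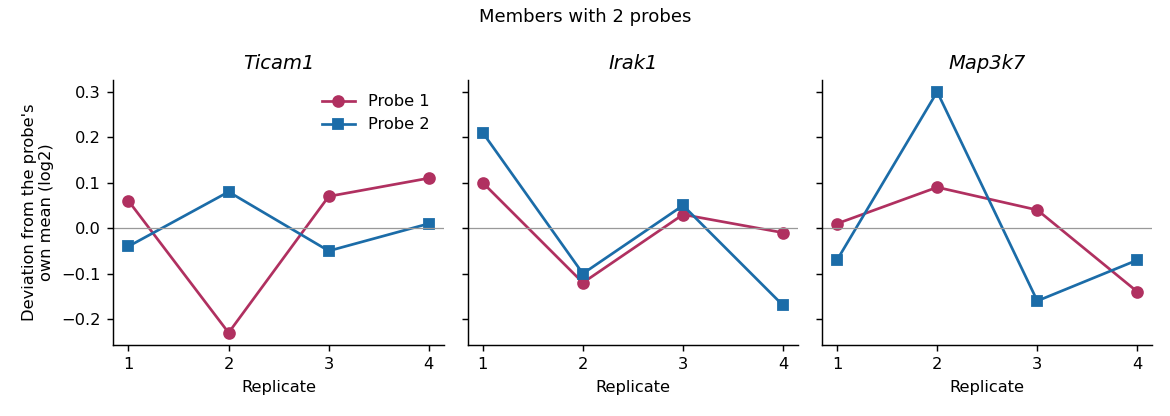
Deviation of each probe from its own mean over 4 arrays (y axis, log2 units) by replicate (x axis) for the 3 members with 2 probes, and lines join the points of a probe. The Irak1 probes lie on the same side of their means on all 4 arrays. The Ticam1 probes do so on 1 of 4 and part most on replicate 2, at -0.23 and 0.08.

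The members were set beside all other probes for their spread between replicates. The median SD was 0.144 over the 13 member probes and 0.126 over all 19400 detected probes, and the median fold range was 1.25 and 1.22. The member SD ran from 0.0586 to 0.286, and 4 of 13 lay above the trend fitted by limma, those of Cd14, Irak3 and the second Irak1 and Map3k7 probes. Of all detected probes 44.3% lay above it. The variance test called 0 of 13 member probes, with adjusted p from 0.941 to 0.998 and 0 of 13 at an unadjusted p below 0.05. It called 0.17% of all detected probes, and 6.5% had an unadjusted p below 0.05. In data simulated for 19400 probes, the SD of each probe was drawn at random from limma's fitted prior, and that of 200 planted probes was multiplied. With a multiple of 4 the planted probes were called in 4.5% of cases, with 8 in 58.5% and with 16 in 89.0%. A moderate excess spread would thus usually be missed.

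**Figure D3:**
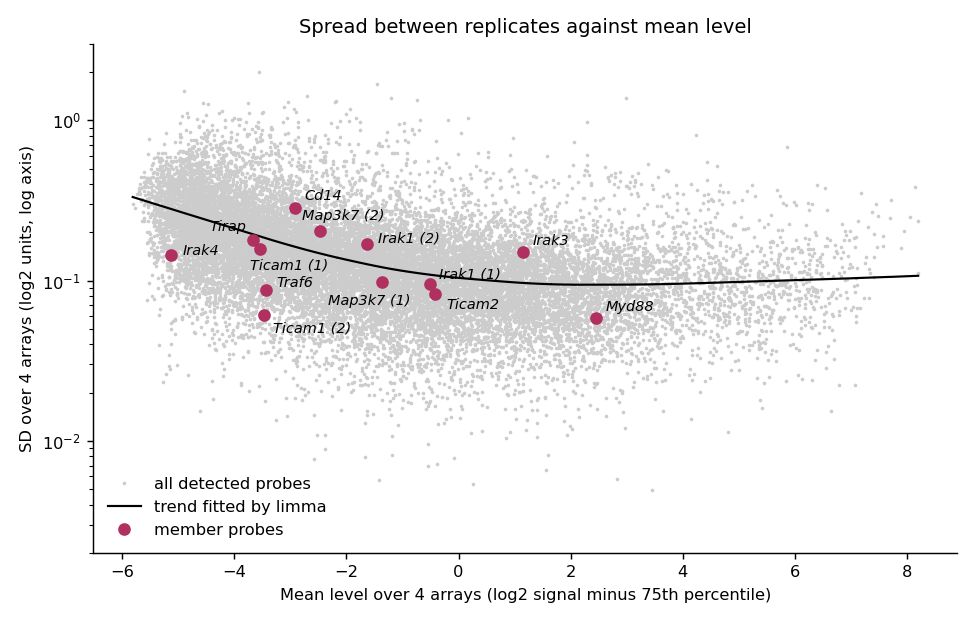
SD over 4 arrays (y axis, log2 units, log axis) against mean level (x axis, log2 signal minus 75th percentile) for all 19400 detected probes in grey and the 13 member probes in red. The black line is the SD that limma's prior gives at each level. The SD of Cd14 is 1.76 times that of the line, and 9 of the 13 member probes lie below it.

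Replicate 4 was the lowest array for 7 of the 13 member probes and for 26.1% of all detected probes. Replicates 1, 2 and 3 were lowest for 1, 2 and 3 member probes and for 23.8%, 23.4% and 26.7% of all detected probes. Replicate 2 was most often the highest, for 6 member probes beside 21.9% of all detected probes. Replicates 1, 3 and 4 were highest for 2, 2 and 3 member probes, beside 19.6%, 24.6% and 34.0%. These counts depend on the processing. Under normexp replicate 4 was most often the highest, for 5 member probes, with replicate 2 highest for 4, and replicate 2 was most often the lowest, for 5, with replicate 4 lowest for 4. Under quantile normalization replicate 4 was lowest for 8. The matching shares of all detected probes are not given for these settings, so the counts are not read as a trait of the members. With normexp the median deviation of all detected probes was 0.07 on replicate 4 and -0.04 on replicate 2, beside 0.02 and -0.05 for the member probes. The median deviation on replicate 4 was -0.08 for the member probes and 0.02 for all detected probes, a difference of -0.09 log2 units. That difference was -0.05 with normexp, -0.07 with quantile normalization and -0.09 with the spike-in controls as scale, where the medians themselves were -0.67 and -0.57. The 4 arrays shared 1 slide and 1 scan date, so neither could be tested as a batch. Relative to the 75th percentile, 8 bright spike-in control probes stood at 1.86, 1.87, 2.46 and 2.85 on replicates 1 to 4, and their part in these differences was not tested.

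**Figure D4:**
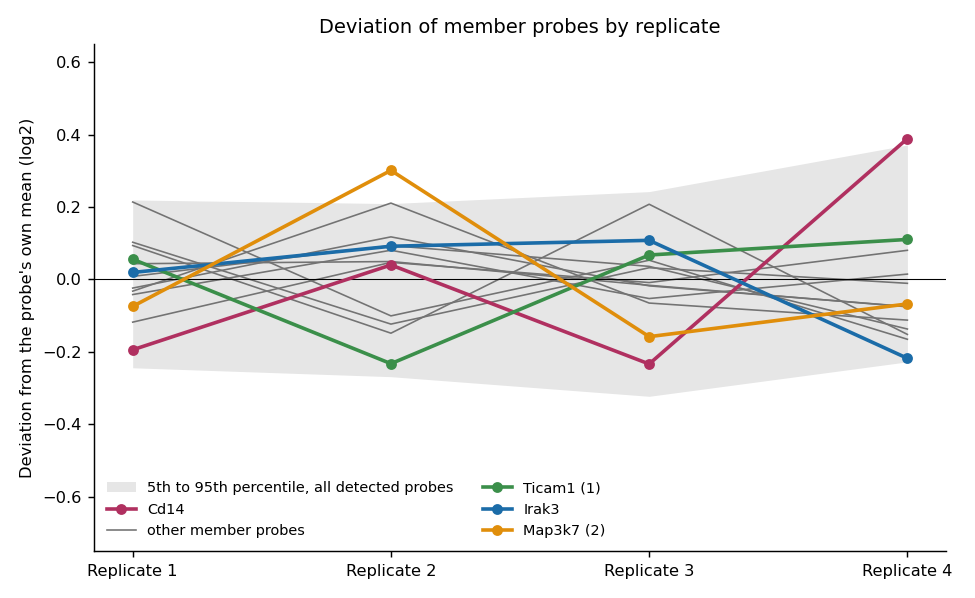
Deviation of each member probe from its own mean (y axis, log2 units) by replicate (x axis). Coloured lines are Cd14, Irak3, the first Ticam1 and the second Map3k7 probe, thin lines the other 9, and the grey band spans the 5th to 95th percentile of all detected probes. Outside the band lie Cd14 on replicate 4, at 0.39, the second Map3k7 probe on replicate 2, at 0.30, and by a narrow margin Irak4 on replicate 2, at 0.21.

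Around these 10 genes, 108 further genes of the pathway in 8 lists were on the array and 88 of them (81.5%) were detected on all 4 arrays, beside 54.9% of all genes with a symbol. The variance test called none of these pathway genes. The lists were chosen with earlier results of these data known, so their counts do not test an excess over 54.9%. All 9 genes of ubiquitin conjugation and the TAK1 complex were detected, including the ubiquitin-conjugating enzyme Ube2n at 2.16 ± 0.13, its partner Ube2v1 at 4.10 ± 0.10 and the TAK1-binding protein Tab1 at 0.01 ± 0.08 (SD, n = 4 each). All 10 genes of the TRIF branch were detected, with Traf3 at -1.85 ± 0.07, Ripk1 at 0.50 ± 0.05 and Ripk3 at 1.97 ± 0.10. All 11 of the IKK complex and NF-kB were detected, with the kinases Chuk at -0.70 ± 0.09 and Ikbkb at -0.16 ± 0.11 and their scaffold Ikbkg at 0.47 ± 0.04. In the MAP kinase arm 15 of 16 were detected, with Map3k8 at -0.16 ± 0.32, Tnip2 at 0.02 ± 0.07 and Map2k1 at 1.49 ± 0.05. The transcription factor Fos was detected on no array by this rule. With the software's positive and significant flag as the rule instead, all 16 were detected. In all these counts 1 detected probe sufficed for a gene. With every probe of a gene required, 8 of 9 passed for ubiquitin conjugation and the TAK1 complex and 9 of 10 for the TRIF branch. For the IKK complex and NF-kB it was 9 of 11, and for the MAP kinase arm 12 of 16.

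Of 20 receptors and accessory proteins 13 were detected, with Tlr2 at 0.94 ± 0.17 and Tlr3 at -4.02 ± 0.47 (SD, n = 4 each), and Tlr1 passed on 1 array. Of 10 further myddosome and Pellino genes 8 were detected, including the kinase Irak2 at -2.12 ± 0.19 and the ligase Peli1 at -2.51 ± 0.12, while Irak1bp1 and Peli2 were detected on no array. Of 17 negative regulators 14 were detected, with Tollip at 0.59 ± 0.09 and Il1rl1 at -3.80 ± 0.34, and Sigirr, Sarm1 and Socs1 were detected on no array. Of 15 cytokines and enzymes that the pathway induces 8 were detected (53.3%), beside 54.9% of all genes with a symbol. The cytokines Tnf (0.92 ± 0.11) and Il1b (2.47 ± 0.22) were among the 8, and 6 of the 15, including Il6, were detected on no array. Tlr3 was detected on 1 of its 2 probes and Il1rl1 on 1 of its 3. With every probe of a gene required, 10 of the 20 receptors and accessory proteins and 11 of the 17 negative regulators passed. These counts are descriptions of 1 condition, and a gene without a detected probe has an upper bound, not a zero.

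**Figure D5:**
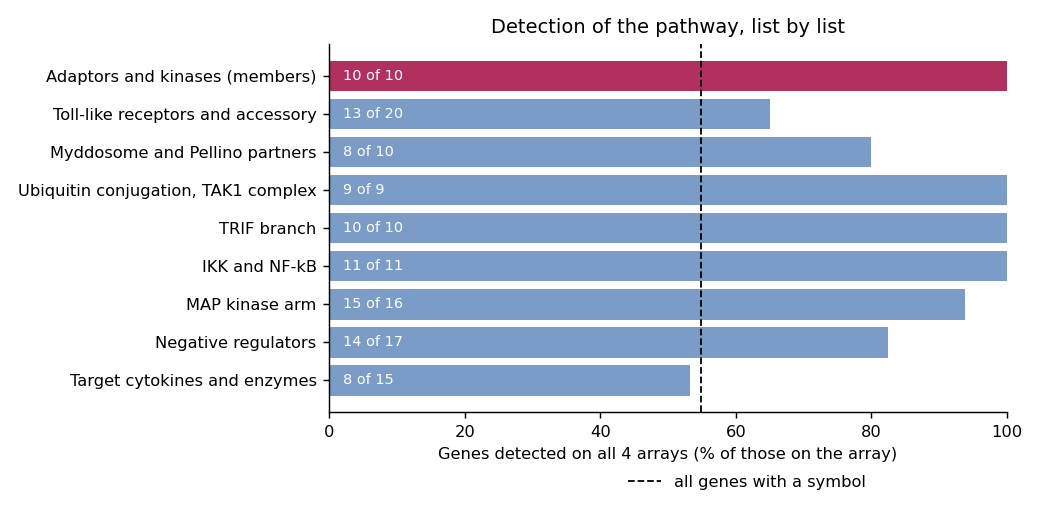
Share of genes detected on all 4 arrays (x axis, percent of those on the array) for the 10 members (red) and 8 pathway lists (blue), with counts in the bars. The dashed line is the share over all genes with a symbol, 54.9%. Members and lists were chosen with earlier results of these data known. The members and 3 lists reach 100%, and the list of target cytokines and enzymes, 8 of 15, lies just below the line. A gene counts with 1 detected probe, and with every probe required the 3 lists fall below 100%.

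Markers of macrophages were detected in 9 of 12 cases, among them Cd68, Csf1r and Spi1. Adgre1 passed on 1 array, and Cd163 and Marco on none. Itgam, also detected, spread widest of the detected macrophage markers, with -1.42, -0.56, -1.59 and -0.03 on replicates 1 to 4. It did not pass the variance test (unadjusted p = 0.000142, adjusted p = 0.0647, limma). Of 40 markers of epithelial, fibroblast, endothelial, lymphocyte and neutrophil cells 13 were detected (32.5%), and 22 were detected on no array. The detected ones were Foxj1 of 8 epithelial markers, Col1a2, Dcn and Thy1 of 8 fibroblast markers, Pecam1, Cdh5, Vwf and Eng of 8 endothelial markers, Cd3d, Lck and Cd79a of 8 lymphocyte markers, and Mpo and Camp of 8 neutrophil markers. Vwf lay at 1.23 ± 0.27, Pecam1 at -0.70 ± 0.10 and Camp at -1.06 ± 0.20 (SD, n = 4 each), and their part in the members' levels was not tested. Epcam, Col1a1, Kdr, Cd3e and Elane were among those detected on no array. Thy1 passed the variance test (adjusted p = 0.0362, limma), with -1.55, -1.67, -3.28 and -0.81 on replicates 1 to 4, and no probe of the array passed with a non-robust or a flat prior or without replicate 3. Fewer cells that express a gene and less of its RNA per cell cannot be told apart in these bulk samples.

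Promoter windows from RefSeq (GRCr8, 250 bases before to 50 after the start) were matched for 8 of the 10 members, not for Ticam1 and Traf6. The Cd14 window held 48.3% G and C with 3 CpG sites, and that of Ticam2 47.7% with 4. The windows of Myd88, Irak1, Irak3, Irak4 and Map3k7 held 55.0% to 67.3% with 14 to 26 CpG sites, beside medians of 52.3% and 7 over all genes, with the first listed window of each. Tirap has 2 windows, at 66.0% with 23 and at 44.7% with 2. On either strand the GC-box sequence GGGCGG occurred in 6 of 8 members and in 36.0% of all genes, and GAGGAAG, a core bound by the macrophage factor PU.1, in Cd14, Irak4 and Ticam2 and in 13.3% of all genes. TATAAA and a form of the NF-kB consensus matched no member and 15.3% and 1.62% of all genes, with any window of a gene counted. A match is a run of letters and was not tested as a binding site.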

How the data were processed

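RNA of 4 NR8383 cultures (integrity number above 7.5) was labelled with Cy3, starting from 100 ng, for one-colour hybridisation, per the labels' protocols. Per the submitters' processing notes, the scans were quantified in Agilent Feature Extraction 11.0.1.1. The deposited values are processed fluorescence intensity for each spot, with no scaling between arrays recorded, per the file headers. The deposited flags of the software (0 or 1) gave detection and outliers. No spot was saturated. Brightness of a spot over its local background is its mean signal before processing, divided by the median of the local background.

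Outlier spots were left out. From the deposited intensities, log2 signal was centred on the 75th percentile of each array's non-control spots and averaged per probe. Detection of a probe needed more than 0.5 of its unflagged spots well above background, and detection of a gene needed 1 or more probes that passed on all 4 arrays; its level in a list is that of its brightest detected probe. Accessions and symbols were matched to RefSeq (GRCr8) names: the accession named 23863 probes, the symbol 5124 and older symbols 351, while 16260 kept the array's name. Probe coordinates come from the files (rn4).

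The variance test used limma (3.58.1, R 4.3.3) and set each probe's residual variance against a robust prior that follows mean level (F test, Benjamini-Hochberg over 19400 probes at 0.05), and the script was tested on simulated data. The 4 arrays, not a read depth, limit the precision.

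The members and lists were chosen with earlier results of these data known. All members are named. From each list the rule names the first 3 symbols with a probe, the undetected or the detected genes where these are 4 or fewer, and any gene past the variance test. Markers and motifs were named after their values were seen. Traf5, Rel and Trim30 were not matched.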

Additional observations from a re-analysis of the deposited data

Results flagged for a closer look

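The 33 results examined were the 13 member probes and the 20 detected pathway genes named by the rule, out of 88 detected. The gap between the outermost replicate and the next was taken as a share of the group's range. In 3 of the 33 (9.09%) it passed Dixon's 95% critical value for 4 samples. Chance gives this in about 1 of 20 groups, and 5.3% of all detected probes showed it. The rule did not name Ly86, Unc93b1 and Nfkb2, whose gaps of 0.92, 0.901 and 0.893 also passed. The 9.09% is therefore the share of a chosen subset. The first Ticam1 probe was lowest on replicate 2, at -3.77 against -3.48 to -3.42 on the others (gap 0.841 of the range). The second Ticam1 probe was highest there, but with normexp it lay at -0.04 from its mean on replicate 2, on the same side as the first at -0.22. The pathway kinase Map3k8 was lowest on replicate 4, at -0.64 against -0.04 to 0.07 (gap 0.834; unadjusted p = 0.00933, adjusted p = 0.374, limma). Il1b was also lowest on replicate 4, at 2.15 against 2.56 to 2.59 (gap 0.93; unadjusted p = 0.037, adjusted p = 0.703, limma).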

How the results depend on the processing

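No paired analysis was possible because there is only 1 group. All 10 members were detected with the positive and significant flag, when 2 arrays sufficed, when all probes of a gene had to pass, with outlier spots kept and without any single replicate. The pathway count of 88 was 75 to 94 under the same settings. The variance test called 0 member probes under each setting run, which were those flags, normexp, quantile normalization, scaling on the median of detected probes or on the spike-in controls, all probes tested, a non-robust or a flat prior, a threshold of 0.01 and each replicate left out. The lowest adjusted p of a member probe lay between 0.812 and 0.996 over these fits. The number of all probes called, 33, was 270 with normexp, 1121 with all probes tested, 0 with the non-robust or the flat prior, 1 with the spike-ins and 0 to 75 with 1 replicate left out. Levels depend on the scale by construction: the median over the 13 member probes was -2.48, against -2.26 with normexp (offset 50), -0.90 with the median of detected probes and -4.74 with the spike-in controls. With the spike-ins the median SD was 0.542 in place of 0.144, and 12 of 13 probes were lowest on replicate 4. There the median deviation was -0.67 for the member probes and -0.57 for all detected probes, so the shift was not particular to the members. The share of all detected probes lowest on replicate 4 is not given for this scale. Low signal limits Irak4 most.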

Other observations

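A probe that the array describes as similar to Tirap but names by a transcript identifier gave 13.6, 17.7, 26.6 and 9.8 fluorescence units on replicates 1 to 4. It was well above background on replicate 3 alone and was not counted among the members.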
